A study of Mus musculus with 6 samples.

Results

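A set of 32 genes that make, sense, import, store and export cholesterol was read from the RNA of mouse melanoma cells treated with fenofibrate. The genes were listed by function, but with earlier results of these data known. They were matched by symbol to the 54838 genes of the deposited table, where all 32 were found. They comprise 8 enzymes that lead from acetyl-CoA to squalene, 10 that lead from squalene to cholesterol, 6 genes of SREBP processing, 4 of uptake, transport and storage, and 4 of efflux. Of the 32, 30 passed the filter on low counts and were tested, while Abcg1 and Nr1h3 did not. The fenofibrate group holds 3 libraries of B16F10 cells exposed to the drug at 50 µM, and the Ctrl group 3 libraries of control cells. B16F10 is a metastatic subline of the B16 melanoma of C57BL/6 mice, and fenofibrate is a drug against high blood lipids that acts, as its free acid, on the nuclear receptor PPARα. The series calls the samples biological triplicates. The vehicle of the controls and the time of exposure are not given in the sources used here, and the cell line field names a different line for each library, from B16F10 to B16F15. Samples were grouped by title, and if that field is meant as written, line and treatment cannot be told apart.

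Mammalian cells build cholesterol from acetyl-CoA through mevalonate, the isoprenoids and squalene, and then through a series of sterols. The transcription factor SREBP2 drives the genes of this route. When sterols are scarce, SCAP escorts SREBP2 from the endoplasmic reticulum to the Golgi, where a pair of proteases release its active part, and when sterols are plentiful the INSIG proteins hold SCAP back. Oxysterols activate the LXR receptors, which induce exporters such as ABCA1 and the ubiquitin ligase MYLIP, which lowers the uptake of lipoproteins.

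The libraries held 13540038 to 14710856 counts with fenofibrate and 13594939 to 14072673 counts in Ctrl. Levels are given as normalised CPM, which are CPM whose library total was scaled by TMM. Values are listed for libraries 1, 2 and 3 of each group, and a gene was called where edgeR's adjusted p, taken over the 13629 genes that entered the fit, was at most 0.05. The 6 melanocyte markers, among them Mlana, Pmel and Dct, were all tested and summed to 25374 to 26898 CPM with fenofibrate and 20550.1 to 21933 CPM in Ctrl. None of the 5 marker lists of other cell types summed to more than 1.55 CPM in a fenofibrate library or 2.72 CPM in a Ctrl library. In these lists Cd3e, Adgre1, Cdh5, Kdr, Tek, Krt5 and Alb had 0 counts in all 6 libraries. The leukocyte list summed to 0.960 to 1.39 CPM with fenofibrate and 0.221 to 0.662 CPM in Ctrl, and its part in the results was not tested. In bulk RNA, fewer cells that express a gene and less RNA per cell cannot be told apart.

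Fenofibrate-treated cells held less RNA of 9 of the 18 cholesterol synthesis genes, of Insig1 and of the sterol carrier gene Stard4. They held more RNA of Insig2, Mylip, Soat1 and Abca1. Of the other synthesis genes, 2 were called higher, Hsd17b7 and Tm7sf2, the latter with shared exons as described below, and 7 were not called. Of the 30 genes tested, 14 were called lower and 6 higher with fenofibrate, and 10 were not called. Over all genes, 39.1% were called, 19.5% lower and 19.5% higher. The share called lower among the cholesterol genes, 46.7%, was thus above that of all genes, and the share called higher was near it. The median log2 fold change was -0.29 over the 30 genes and -0.00 over all genes tested, and the median size of a change, whatever its sign, was 0.40 log2 units over the 30 genes and 0.25 over all genes. All 3 fenofibrate libraries lay below all 3 Ctrl libraries for 18 genes, where this held for 26.9% of all genes, and above them for 7, where this held for 26.4%.

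**Figure D1:**
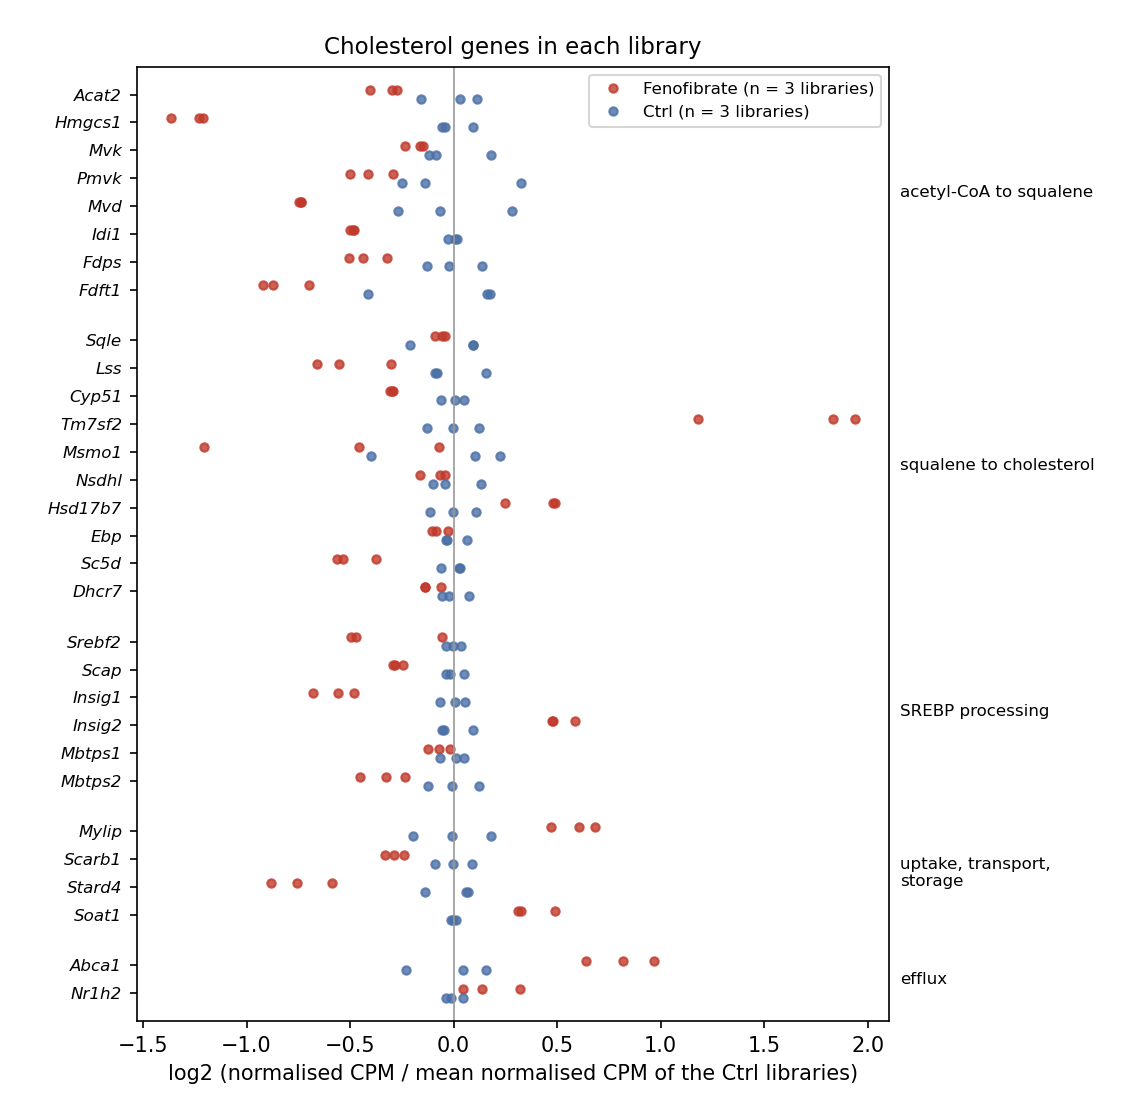
Each point is a library, given as the log2 of its normalised CPM over the mean of the Ctrl libraries, for the 30 genes tested, with fenofibrate points above Ctrl points in each row and genes grouped by role. The fenofibrate points lie left of the Ctrl points for all 8 genes from Acat2 to Fdft1 and right of them for Insig2, Mylip, Soat1 and Abca1.

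The 8 enzymes of the route to squalene were all lower in every fenofibrate library than in every Ctrl library, and 6 of them (75%) were called lower. Over all genes, 26.9% lay lower in this way and 19.5% were called lower. Hmgcs1 encodes the synthase that joins acetyl-CoA to acetoacetyl-CoA to make HMG-CoA, the precursor of mevalonate. It had 69.8, 70.7 and 63.5 normalised CPM in the fenofibrate libraries, against 175, 159 and 157 in the Ctrl libraries. The groups were far apart, and this was the largest fall of the 30 genes, with a log2 fold change of -1.27 ± 0.06 SE (2.41-fold lower, edgeR adjusted p = 1.81e-05). The gene (ENSMUSG00000093930, chromosome 13 from 119690379 to 119708260, plus strand, GRCm38) shares exons with an antisense gene that had 0 counts in all libraries. Acat2, the cytosolic thiolase that makes the acetoacetyl-CoA, had 24.9, 25.3 and 23.1 normalised CPM with fenofibrate and 31.2, 33.1 and 27.4 in Ctrl. Its fall was smaller (-0.32, edgeR adjusted p = 0.0253), and the call was lost without fenofibrate replicate 1 or 3 and without Ctrl replicate 1 or 2 (edgeR adjusted p from 0.0545 to 0.0798).

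The next 3 enzymes turn mevalonate into isopentenyl diphosphate, the building block of isoprenoids. The mevalonate kinase gene Mvk had 16.9, 16.1 and 17.1 normalised CPM with fenofibrate and 17.4, 17.8 and 21.4 in Ctrl and was not called, with a 95% interval of the log2 fold change from -0.42 to 0.06. The phosphomevalonate kinase gene Pmvk, at 4.48 ± 0.328 normalised CPM with fenofibrate and 5.91 ± 1.3 in Ctrl (mean ± SD, n = 3 each), was the least counted enzyme of this stage and was not called either (95% interval -0.83 to 0.04). Mvd, the decarboxylase that completes isopentenyl diphosphate, fell. It had 10.4, 10.4 and 10.3 normalised CPM in the fenofibrate libraries, against 14.4, 16.6 and 21.1 in the Ctrl libraries. The 3 fenofibrate values nearly coincided while the Ctrl values were spread, and the log2 fold change was -0.74 ± 0.15 SE (edgeR adjusted p = 0.00570).

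Idi1, the isomerase that makes the partner building block dimethylallyl diphosphate, had 55.8, 56.6 and 56.4 normalised CPM in the fenofibrate libraries, against 79.4, 79.9 and 77.6 in the Ctrl libraries. Both groups were tight and did not overlap, with a log2 fold change of -0.49 ± 0.05 SE (edgeR adjusted p = 0.000268). Fdps, which joins these blocks into farnesyl diphosphate, fell by 0.42 on the log2 scale, with 87.9 ± 5.68 normalised CPM with fenofibrate and 118 ± 11 in Ctrl (mean ± SD, n = 3 each, edgeR adjusted p = 0.00492). Summed with Gm43738, which shares its exons on the same strand, the log2 fold change was -0.43 (edgeR adjusted p = 0.00408). Fdft1, the squalene synthase gene and the first enzyme committed to sterols, had 22.9, 25.9 and 22.2 normalised CPM in the fenofibrate libraries, against 47, 31.5 and 47.4 in the Ctrl libraries. Ctrl library 2 was the lowest of its group but still above every fenofibrate library. Fdft1 was 1.77-fold lower (log2 fold change -0.83 ± 0.16 SE, edgeR adjusted p = 0.00548). It shares exons on the opposite strand with the cathepsin gene Ctsb, which had 14561, 14928 and 14732 counts with fenofibrate and 8144, 8045 and 8070 in Ctrl and so moved the other way (1.83-fold higher). The part of Ctsb reads in the Fdft1 counts was not tested.

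**Figure D2:**
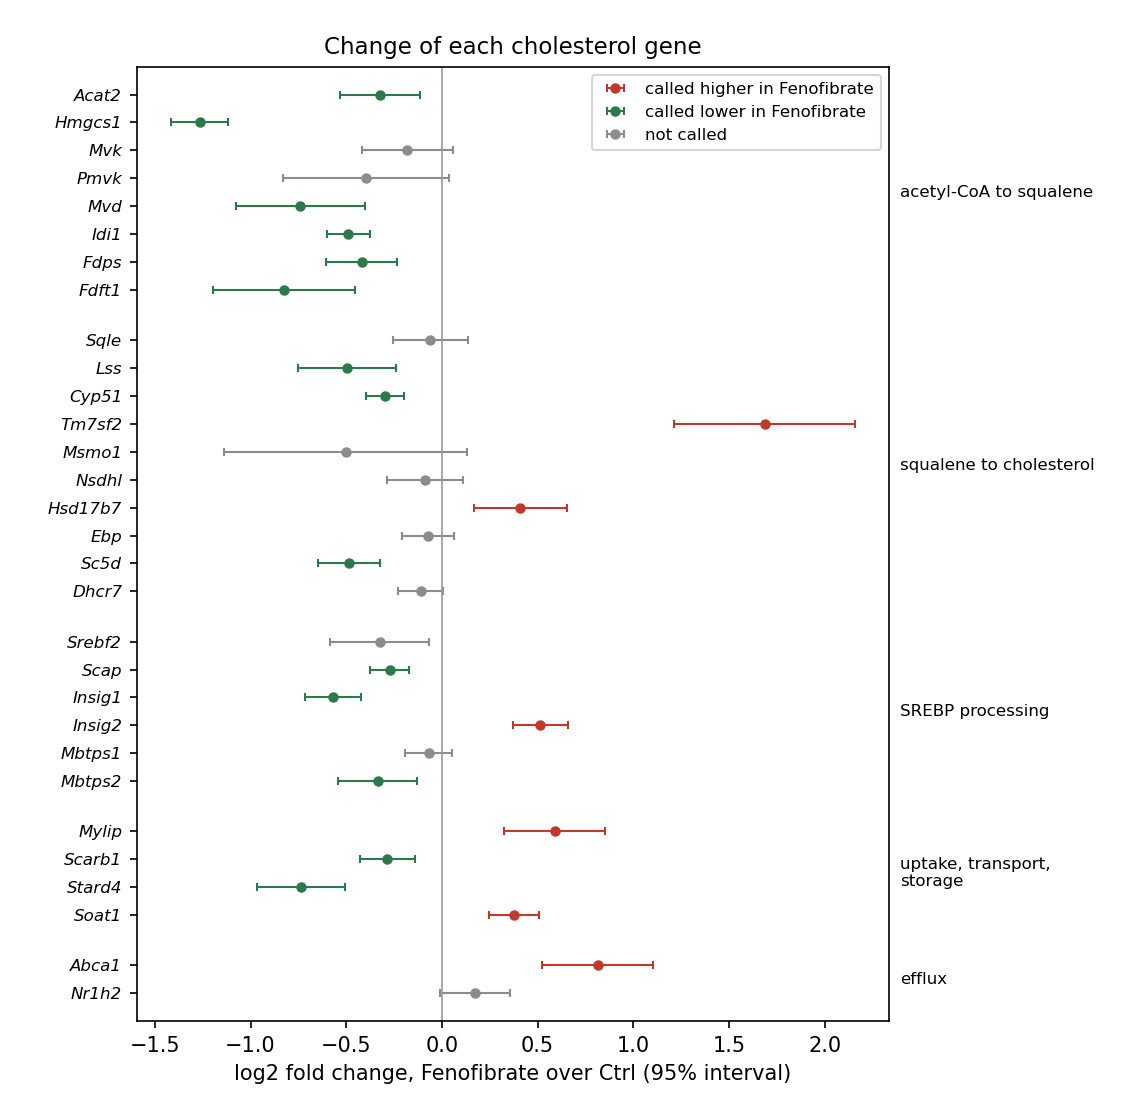
Points give the edgeR log2 fold change of fenofibrate over Ctrl and bars its 95% interval (3 libraries a group) for the 30 genes tested, by role. The genes from Acat2 to Fdft1 all lie below 0, while of the 10 later enzymes 8 lie below 0 and 2 above. Insig1 and Insig2 lie on opposite sides of 0.

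Of the 10 enzymes between squalene and cholesterol, 3 fell, 2 rose and 5 were not called, with a median log2 fold change of -0.10, against -0.45 for the 8 enzymes before them. The difference between the 2 stages was not tested. Of these 10 enzymes 30% were called lower and 20% higher, against 19.5% each way over all genes. Sqle, the squalene epoxidase gene that opens this stage and is a rate-limiting step, had 90.9, 93.2 and 94 normalised CPM in the fenofibrate libraries, against 83.7, 103 and 103 in the Ctrl libraries. The groups overlapped and the 95% interval ran from -0.26 to 0.13 log2 units (edgeR adjusted p = 0.597), and the log2 fold change of Hmgcs1 lies outside that interval. Lss, the cyclase that makes lanosterol, had 32.9, 30.6 and 39 normalised CPM in the fenofibrate libraries, against 45.6, 53.7 and 45.3 in the Ctrl libraries. It fell by 0.50 on the log2 scale (edgeR adjusted p = 0.00974). Cyp51, the lanosterol demethylase gene, fell by 0.30, with 141, 140.4 and 139.7 normalised CPM with fenofibrate and 166, 173 and 179 in Ctrl (edgeR adjusted p = 0.00144). Sc5d, a sterol desaturase gene near the end of the route, was 1.40-fold lower, at 37.7 ± 2.66 normalised CPM with fenofibrate and 52.9 ± 1.85 in Ctrl (mean ± SD, n = 3 each, edgeR adjusted p = 0.00143).

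Msmo1, a methyl oxidase gene that removes the C4 methyl groups, had the largest spread within a group of the 30 genes tested, with a CV of 36.8% with fenofibrate and 21.6% in Ctrl. It had 43.7, 73.2 and 95.7 normalised CPM in the fenofibrate libraries, against 118, 76.2 and 108 in the Ctrl libraries. Fenofibrate library 3 lay within the range of the Ctrl libraries and library 1 far below it, so the groups overlapped and the difference was not called (log2 fold change -0.50 ± 0.27 SE, edgeR adjusted p = 0.183). The sterol dehydrogenase gene Nsdhl (95% interval -0.29 to 0.11) and the isomerase gene Ebp (-0.21 to 0.06) had overlapping groups and were not called. Dhcr7, the reductase gene of a last step to cholesterol, had 129, 122 and 122 normalised CPM with fenofibrate and 132, 129 and 141 in Ctrl. Its groups did not overlap but its small difference was not called (95% interval -0.23 to 0.01, edgeR adjusted p = 0.121). With library totals in place of TMM it passed the threshold (log2 fold change -0.17, edgeR adjusted p = 0.0309), but there the median of all genes was itself -0.06.

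The pair of enzymes called higher are Hsd17b7 and Tm7sf2. Hsd17b7, a ketosteroid reductase that acts in C4 demethylation, had 16.7, 19.6 and 19.7 normalised CPM in the fenofibrate libraries, against 14, 13 and 15.1 in the Ctrl libraries. The groups did not overlap, and the gene rose 1.33-fold (log2 fold change 0.41 ± 0.10 SE, edgeR adjusted p = 0.0172), but the call was lost without fenofibrate replicate 2 or 3 and without Ctrl replicate 1 or 2 (edgeR adjusted p from 0.0504 to 0.0600). Tm7sf2, a sterol C14 reductase gene, was counted 221, 399 and 378 with fenofibrate and 102, 115 and 93 in Ctrl and rose 3.22-fold (log2 fold change 1.69 ± 0.20 SE, edgeR adjusted p = 0.000649). It shares exons on the same strand with Vps51, a gene of vesicle tethering, which was counted 199, 57 and 46 with fenofibrate and 289, 237 and 256 in Ctrl. Among the fenofibrate libraries, library 1 had the fewest Tm7sf2 counts and the most Vps51 counts. Summed, the 2 genes had 420, 456 and 424 counts with fenofibrate and 391, 352 and 349 in Ctrl. Tested as a single feature, in a fit added after the data were seen, the sum rose 1.20-fold (log2 fold change 0.26, edgeR adjusted p = 0.0378), against 3.22-fold for Tm7sf2 alone. Lbr, which encodes the other sterol C14 reductase and is a lamin receptor as well, fell by 0.39 on the log2 scale (edgeR adjusted p = 0.000710).

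**Figure D3:**
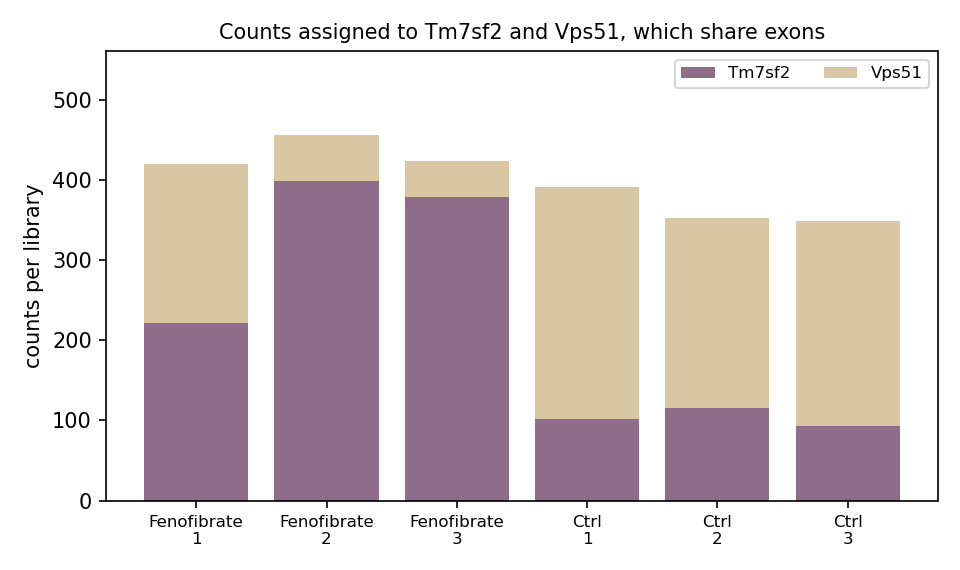
Bars are stacked counts of Tm7sf2 (lower part) and Vps51 (upper part) in the 3 fenofibrate libraries and the 3 Ctrl libraries. The lower part is 221 to 399 counts with fenofibrate and 93 to 115 in Ctrl, while the whole bars span 420 to 456 counts with fenofibrate and 349 to 391 in Ctrl.

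Per length, the enzymes differed widely in level. On an FPKM scale recomputed over merged exons, Cyp51 had the highest mean of the 32 genes in both groups, at 31.2 ± 0.148 FPKM with fenofibrate and 39.8 ± 1.43 in Ctrl (mean ± SD, n = 3 each). Levels and ranks depend on the gene length used, and on the deposited FPKM Insig1 was above Cyp51 in Ctrl (means 34.4 against 32.5). With fenofibrate, Insig2 at 30.2 ± 1.32 FPKM differed from Cyp51 by less than its spread, and in library 3 it was the higher, at 31.7 FPKM against 31 for Cyp51. Hmgcs1 held 14.5 ± 0.85 FPKM with fenofibrate and 36.3 ± 2.27 in Ctrl, which placed it at rank 13 with fenofibrate and rank 3 in Ctrl among the 32 genes. In Ctrl, Insig1 at 38.4 ± 1.69 FPKM stood between Cyp51 and Hmgcs1 and differed from neither by more than their spread. At the low end, Tm7sf2 held 5.28 ± 1.39 FPKM with fenofibrate and 1.70 ± 0.151 in Ctrl, with the shared exons as above, while Lbr held 15.3 ± 0.436 FPKM with fenofibrate and 20.8 ± 0.403 in Ctrl. Lss was also low at 3.11 ± 0.395 FPKM with fenofibrate and 4.56 ± 0.453 in Ctrl, over a merged exon length of 10787 bases. Summed over the 8 genes of the first stage, the level was 292, 303 and 279.9 normalised CPM with fenofibrate and 477, 459 and 489 in Ctrl, so fenofibrate libraries held 61.4% of the Ctrl mean. The 10 later enzymes summed to 578, 616 and 649 normalised CPM with fenofibrate and 695, 685 and 729 in Ctrl, or 87.4%.

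**Figure D4:**
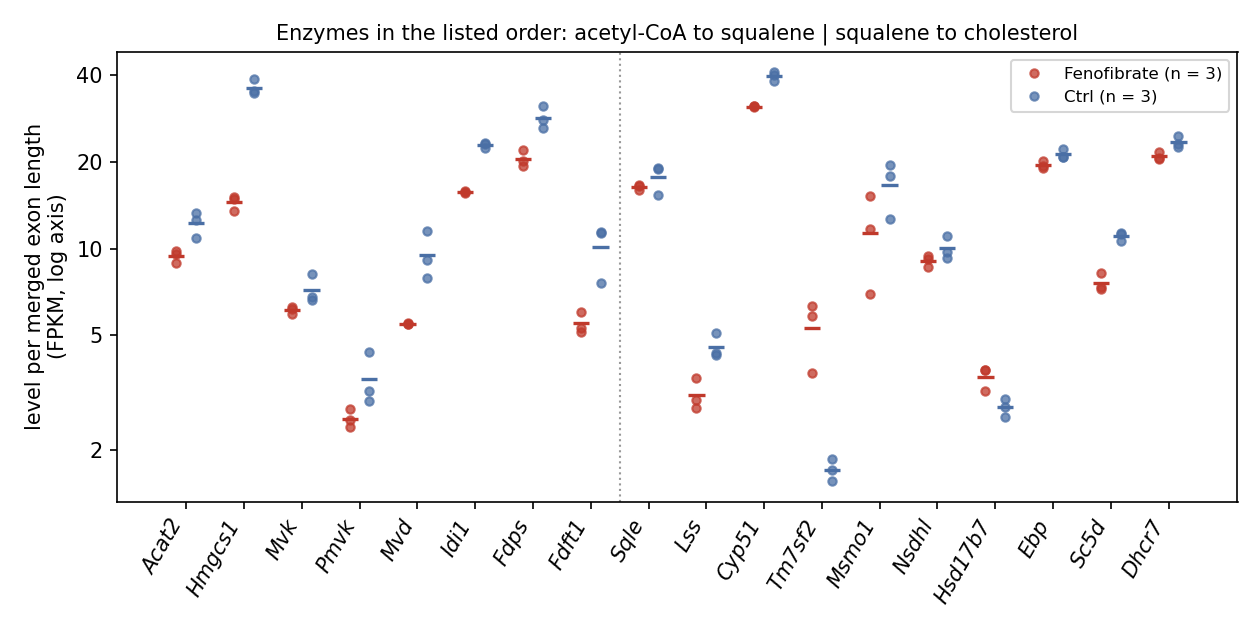
Points are libraries and short lines group means (n = 3) of the level per merged exon length in FPKM, on a log axis, for the 18 synthesis enzymes in listed order, fenofibrate left of Ctrl. Hmgcs1 lies at 14.5 FPKM with fenofibrate and 36.3 in Ctrl, while Sqle, Nsdhl, Ebp and Dhcr7 lie close together in both groups.

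To show the control regions of enzymes that moved, the 250 bases before the transcript start were read for 3 enzymes that fell and for Hsd17b7, which rose. They come from RefSeq (GRCm38.p6), 5′ to 3′ on the gene's strand. Capitals mark the core of the sterol regulatory element bound by SREBP (TCACNCCAC) and the CCAAT box bound by NF-Y, which often sits beside it (CCAAT), each on either strand. The motifs do not overlap in these windows.
Hmgcs1, chr13:119690101-119690350, plus strand: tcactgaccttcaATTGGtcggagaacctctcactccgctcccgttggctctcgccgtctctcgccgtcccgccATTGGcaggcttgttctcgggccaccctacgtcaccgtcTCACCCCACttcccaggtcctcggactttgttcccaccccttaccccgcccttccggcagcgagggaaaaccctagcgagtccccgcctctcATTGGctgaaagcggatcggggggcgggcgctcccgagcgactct
Mvd, chr8:122443423-122443672, minus strand: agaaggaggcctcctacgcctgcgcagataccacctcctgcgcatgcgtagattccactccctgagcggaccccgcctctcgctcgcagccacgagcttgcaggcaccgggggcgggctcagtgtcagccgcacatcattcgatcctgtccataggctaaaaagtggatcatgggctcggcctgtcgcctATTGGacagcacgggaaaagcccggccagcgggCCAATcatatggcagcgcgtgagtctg
Lss, chr10:76531355-76531604, plus strand: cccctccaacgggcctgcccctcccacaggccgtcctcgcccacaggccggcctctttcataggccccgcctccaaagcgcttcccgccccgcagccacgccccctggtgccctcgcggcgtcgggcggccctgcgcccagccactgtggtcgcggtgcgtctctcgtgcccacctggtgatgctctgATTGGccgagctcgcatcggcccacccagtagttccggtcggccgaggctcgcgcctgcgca
Hsd17b7, chr1:169969206-169969455, minus strand: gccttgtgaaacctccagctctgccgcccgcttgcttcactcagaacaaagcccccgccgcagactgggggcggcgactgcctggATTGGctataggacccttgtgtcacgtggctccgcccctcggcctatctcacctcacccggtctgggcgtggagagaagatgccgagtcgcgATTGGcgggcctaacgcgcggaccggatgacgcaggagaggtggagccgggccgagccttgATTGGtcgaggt

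Of the 32 genes, 26 had an entry in the RefSeq table, 15 of them synthesis enzymes. The sterol element core was found before 1 of the 26, Hmgcs1, where it starts 137 bases before the transcript. It was found before 1.22% of all 27025 genes in the table. Only exact matches to this core within the window were counted. Whether the genes without a match hold another form of the element, or one outside the window, was not tested. Of the 26 genes, 5 had more than 1 entry, each with its own start, and a gene was counted if any entry held the motif. A CCAAT box was found before 14 of the 15 enzymes (93.3%), 5 of the 11 other members (45.5%) and 37.5% of all genes. It stood before 7 of 10 genes called lower, 5 of 6 called higher and 7 of 9 tested and not called. Dhcr7, Pmvk and Insig2 held a box in only some of their entries. The window of Tm7sf2 lies within Vps51 and is not shown.

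Of the 6 genes that process and control SREBP, 3 fell, 1 rose and 2 were not called. The share called was 66.7%, against 39.1% over all genes. Insig1, the anchor whose gene is itself an SREBP target, had 72.8, 79.1 and 83.5 normalised CPM in the fenofibrate libraries, against 117, 121 and 111 in the Ctrl libraries. Its groups were well apart and it fell by 0.57 on the log2 scale (edgeR adjusted p = 0.000451). Insig2, the second anchor, which is not driven by SREBP in the same way, had 104, 104 and 112 normalised CPM in the fenofibrate libraries, against 79.9, 72 and 72.6 in the Ctrl libraries. It rose 1.43-fold (log2 fold change 0.51 ± 0.06 SE, edgeR adjusted p = 0.000623), again with no overlap. The ratio of Insig2 to Insig1 counts, which does not depend on scaling between libraries, was 1.43, 1.32 and 1.35 in the fenofibrate libraries, against 0.683, 0.595 and 0.651 in the Ctrl libraries. The 2 groups did not overlap, which was fixed in advance, as each gene alone separated the groups and in opposite directions. An exact two-sided permutation test thus had to give p = 0.1, the smallest that 3 against 3 allows. It adds nothing to the results of the single genes. Per merged exon length, Insig2 stood at 30.2 ± 1.32 FPKM with fenofibrate and 22 ± 1.35 in Ctrl (mean ± SD, n = 3 each). Insig1 stood at 24.9 ± 1.71 FPKM with fenofibrate and 38.4 ± 1.69 in Ctrl, so on this scale the order of the pair differed between the groups. The order depends on the gene length used. On the deposited FPKM, Insig1 was above Insig2 in both groups (means 22.3 against 13.9 with fenofibrate, 34.4 against 10.1 in Ctrl). Insig1 (ENSMUSG00000045294) lies on chromosome 5 from 28071363 to 28078662 and Insig2 (ENSMUSG00000003721) on chromosome 1 from 121304353 to 121332589 (GRCm38).

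Scap, the escort of SREBP, was 1.21-fold lower, with 116, 119 and 115 normalised CPM with fenofibrate and 146, 139 and 137 in Ctrl (edgeR adjusted p = 0.00230). Srebf2, which encodes SREBP2, had 159.6, 157 and 213 normalised CPM in the fenofibrate libraries, against 221, 215 and 227 in the Ctrl libraries. Libraries 1 and 2 of the fenofibrate group were low and library 3 lay just under the lowest Ctrl library, so the groups did not overlap. The log2 fold change of -0.33 ± 0.11 SE missed the threshold (edgeR adjusted p = 0.0516), and without fenofibrate replicate 3 it was called (log2 fold change -0.48, edgeR adjusted p = 0.000582). It was also called with DESeq2 (adjusted p = 0.0149), with library totals, with limma on FPKM and with a block on the replicate number. Of the proteases that cleave SREBP, Mbtps2 (site-2) had 33, 30.2 and 35.2 normalised CPM with fenofibrate and 37.9, 45 and 41.1 in Ctrl. It was 1.26-fold lower (edgeR adjusted p = 0.0204, lost without fenofibrate replicate 1 or 2 or Ctrl replicate 2 or 3 at edgeR adjusted p from 0.0506 to 0.0666). Summed with Yy2, which shares exons with it on the same strand, the log2 fold change was -0.36 (edgeR adjusted p = 0.0142). Mbtps1 (site-1) had overlapping groups and was not called (95% interval -0.19 to 0.05).

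All 4 genes of uptake, transport and storage were called, 2 in each direction, where 39.1% of all genes were called. Mylip, the ubiquitin ligase that marks lipoprotein receptors for degradation, had 26.2, 27.6 and 23.8 normalised CPM in the fenofibrate libraries, against 17.1, 15 and 19.5 in the Ctrl libraries. It rose 1.51-fold (log2 fold change 0.59 ± 0.11 SE, edgeR adjusted p = 0.00524) with no overlap between the groups. Scarb1, a receptor for high-density lipoprotein that lets cholesterol pass both ways, had 74.4, 76.9 and 72.1 normalised CPM with fenofibrate and 90.6, 85.2 and 96.4 in Ctrl. It was 1.22-fold lower (edgeR adjusted p = 0.00834). Stard4, a cytosolic sterol carrier, had 21.4, 26.3 and 23.4 normalised CPM in the fenofibrate libraries, against 35.8, 41.5 and 41.1 in the Ctrl libraries. It was 1.67-fold lower (log2 fold change -0.74 ± 0.10 SE, edgeR adjusted p = 0.00110), the largest fall among the 12 tested of the 32 genes that are not synthesis enzymes. Soat1, the enzyme that esterifies cholesterol for storage in droplets, had 167, 149 and 148 normalised CPM in the fenofibrate libraries, against 119, 120.1 and 118 in the Ctrl libraries. It rose 1.3-fold (log2 fold change 0.38 ± 0.06 SE, edgeR adjusted p = 0.00177).

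**Figure D5:**
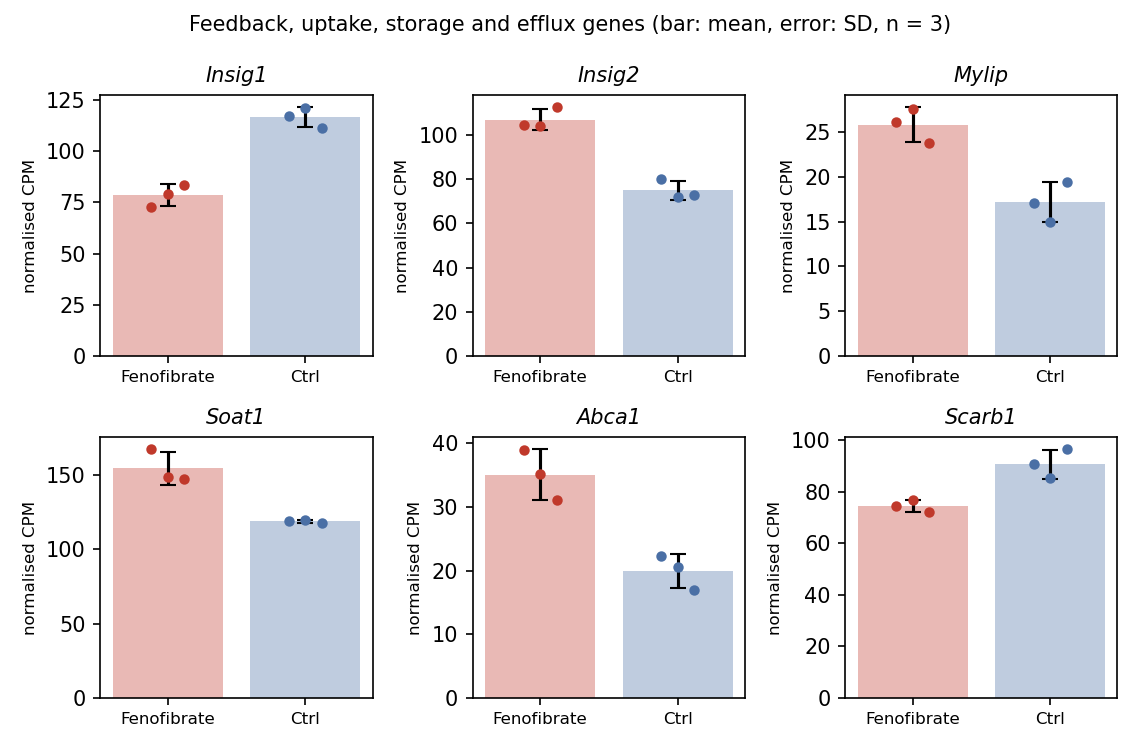
Bars are means and error bars SDs of normalised CPM (n = 3), points are libraries, and fenofibrate stands left of Ctrl, for 6 genes of feedback, uptake, storage and efflux. Insig2, Mylip, Soat1 and Abca1 have all fenofibrate points above all Ctrl points, and Insig1 and Scarb1 all below.

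Among the 4 efflux genes the exporter and its receptors differed in how far they could be read. Abca1, the transporter that loads cholesterol onto apolipoprotein A-I, had 39, 35.2 and 31.1 normalised CPM in the fenofibrate libraries, against 22.2, 20.5 and 17 in the Ctrl libraries. The groups did not overlap, and it rose 1.76-fold (log2 fold change 0.81 ± 0.12 SE, 95% interval 0.53 to 1.10, edgeR adjusted p = 0.00189). The gene (ENSMUSG00000015243, chromosome 4 from 53030787 to 53159895, minus strand, GRCm38) shares no exon with another gene. Its counts were 0.515 ± 0.0378 per Hmgcs1 count with fenofibrate and 0.122 ± 0.0116 in Ctrl (mean ± SD, n = 3 each). Abcg1, the exporter to high-density lipoprotein particles, was counted 1, 0 and 1 times with fenofibrate and 0 times in each Ctrl library, where a count of 0 allows up to 0.213 to 0.221 CPM, so it was not detectable at this depth and no fold is given. Nr1h2, the gene of the LXRβ receptor, had 50.5, 53.8 and 61.1 normalised CPM with fenofibrate and 50.5, 47.8 and 48.6 in Ctrl. It was not called (95% interval -0.01 to 0.36, edgeR adjusted p = 0.123), although the groups did not overlap, the lowest fenofibrate library and the highest Ctrl library being equal as printed. Nr1h3, the gene of LXRα, was counted 9, 13 and 13 times with fenofibrate and 7, 6 and 9 times in Ctrl, too low for the filter, and it shares exons with another gene. Per length, Nr1h2 stood at 16.1 ± 1.58 FPKM with fenofibrate and 14.9 ± 0.455 in Ctrl, while Nr1h3 held 0.325 ± 0.0529 FPKM with fenofibrate and 0.212 ± 0.0473 in Ctrl (mean ± SD, n = 3 each).

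A wider list of 65 genes of the same pathways, none of them among the 32, was read beside them, of which 64 were found and 53 tested. In this list 16 rose, 7 fell and 30 were not called, with a median log2 fold change of 0.08. The share called, 43.4%, was near the 39.1% called over all genes, with 30.2% higher and 13.2% lower in the list against 19.5% each way over all genes. Of 13 other isoprenoid and sterol enzymes and binding proteins, 4 fell and 1 rose, a share called of 38.5% that was near that of all genes. Tmem97, the sigma-2 receptor, was 1.64-fold lower (edgeR adjusted p = 0.000388), with 30.5 ± 2.38 normalised CPM with fenofibrate and 50.1 ± 2.50 in Ctrl (mean ± SD, n = 3 each). The cytochrome b5 gene Cyb5b fell by 0.22 on the log2 scale (edgeR adjusted p = 0.00324). Cyb5r3, the reductase that feeds electrons to cytochrome b5, rose 1.35-fold.

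Of 11 other SREBP regulators, 5 rose and 1 fell, a share called of 54.5% against 39.1% over all genes. Erlin2, a membrane protein that binds the SREBP, SCAP and INSIG complex, rose 1.28-fold, and Faf2 (UBXD8), which helps extract proteins from that membrane, 1.16-fold (edgeR adjusted p = 0.000442 and 0.00564). The pseudokinase gene Trib1, tied to blood lipids in human genetics, rose 2.53-fold, with 44.3 ± 7.58 normalised CPM with fenofibrate and 17.4 ± 0.534 in Ctrl (mean ± SD, n = 3 each). Rnf145, a ubiquitin ligase of the endoplasmic reticulum that acts on SCAP in mouse liver, was 1.75-fold lower (edgeR adjusted p = 8.98e-05).

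Of 22 other genes of uptake and transport tested, 8 rose and 1 fell, a share called of 40.9% that was also near that of all genes. Those that rose include Nceh1, a hydrolase of cholesterol esters (1.45-fold), the receptor chaperone gene Lrpap1 (1.43-fold), Npc2, the soluble cholesterol carrier of lysosomes (1.32-fold), and the receptor gene Lrp1 (1.32-fold). Lrp8, a lipoprotein receptor that MYLIP also targets, was 1.74-fold lower, with 13.9 ± 1.91 normalised CPM with fenofibrate and 24.3 ± 5.30 in Ctrl (mean ± SD, n = 3 each, edgeR adjusted p = 0.00831). Of 16 other genes of efflux, LXR and oxysterols, 9 were too low to test, and of the other 7, 2 rose and 1 fell, a share called of 42.9%. Those that rose were Smpdl3a, a phosphodiesterase gene induced by LXR in human macrophages (1.59-fold), and Abca7, a relative of Abca1 (1.37-fold). Whether LXR acts on Smpdl3a in these mouse cells was not tested. Rxra, the gene of an RXR receptor that pairs with LXR, was 1.58-fold lower, at 80.9 ± 4.45 normalised CPM with fenofibrate and 128 ± 3.90 in Ctrl (mean ± SD, n = 3 each, edgeR adjusted p = 0.000143). The oxysterol enzyme genes Ch25h and Cyp27a1 had 1 and 0 counts over all 6 libraries.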

How the data were processed

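RNA of 6 libraries (3 fenofibrate, 3 Ctrl) had been mRNA-enriched, per the labels' protocols. The deposited table gives, per the file headers, a raw count and an FPKM for each gene and library. The submitters' processing notes name HISAT2 2.0.4, StringTie 1.3.0 and GRCm39 with no roles; the counter and strand setting are not given in the sources used here. The table's coordinates are those of GRCm38 (99.79% of IDs are in GENCODE M21, 98.75% of these with the same start and end), so coordinates are given in that build. The FPKM the authors deposited equals the count per library total and per a fixed gene length, within 0.0016% between libraries. Levels between genes were recomputed over merged exons, also per library total without TMM.

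Counts were tested in R 4.3.3 with edgeR 4.0.16 (filterByExpr, TMM, glmQLFit, glmQLFTest, no covariate), with Benjamini-Hochberg adjustment over 13629 genes and a threshold of 0.05. The SE is the log2 fold change over the square root of F. The fit was first tested on simulated data. Alternatives were DESeq2 1.42.0, RLE factors, library totals, no filter, a replicate block, limma 3.58.1 on log2(FPKM + 0.5) or + 0.1, and leaving out each library. P-values measure the spread between these samples, and counting limits (3 counts) cover counting error only. All members are named. From each wider list the text names at most 4 called genes, those with the largest change in its commoner direction, and at most 2 that went the other way. Members and lists were chosen with earlier results of these data known. Some pathway genes are not reported here. Of 10 members that share exons with another annotated gene, 6 do so on the opposite strand and 4 on the same strand, and their counts can hold reads of that gene; 4 of these partners had 0 counts.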

Additional observations from a re-analysis of the deposited data

How the results depend on the processing

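Of the 20 called genes, 17 kept their call in all 14 alternative fits run, and no log2 fold change turned sign in any of them. The exceptions are Acat2, Hsd17b7 and Mbtps2, each lost in 4 of the 6 fits that leave out a library. Srebf2 and Dhcr7, not called, were called lower in 6 and 3 of the 14 fits. The median log2 fold change of all genes was -0.06 with library totals and -0.05 and -0.06 with limma on FPKM, against -0.00 in the main fit. Calls of lower genes in those fits include this shift. The count of members called lower ranged from 12 to 14 without single libraries and from 14 to 16 in the other fits, and that of members called higher from 5 to 6 and stayed at 6. The synthesis enzymes called higher numbered 1 to 2 without single libraries, through the loss of Hsd17b7. Over all genes the number called ranged from 4248 to 5462.

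Correlations of deviations from group means were 0.03, 0.01 and -0.00 for same-numbered libraries and -0.02 to 0.01 for the others. With 3 libraries a group, these values cannot decide whether the numbers pair the libraries. With a replicate block, 15 members were called lower and 6 higher, and 4540 genes in all. Summing genes that share exons moved the Tm7sf2 log2 fold change to 0.26. Depth limits Abcg1 and Nr1h3, which could not be tested, and 3 libraries a group limit the single-gene calls near the threshold.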
